A study of Mus musculus with 3 samples.

Results

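Polymorphonuclear myeloid-derived suppressor cells (PMN-MDSCs) of tumor tissue were compared with PMN-MDSCs of the spleen, both from tumor-bearing mice, so that the tissue was the labelled difference. The comparison was chosen by the array titles and uses 2 of the 3 arrays of the series, 1 for each tissue, on which 42843 of 60930 probes (70.3%) were well above background on both and could be compared. The third array, of PMN-MDSCs from the spleen of wild-type mice, is given beside them for orientation. All mice were male C57BL/6 animals of 6 to 8 weeks. The cells were enriched with an MDSC isolation kit and sorted on CD11b and Ly6G staining, and their total RNA was hybridised in 1 colour to an Arraystar mouse lncRNA array with probes for coding and long noncoding transcripts. The kind of tumor and the number of mice behind each sample are not stated in the sources used here. The series design text describes the isolation from wild-type spleen and from tumor, and the tumor-bearing spleen is named by the sample labels.

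PMN-MDSCs are neutrophil-lineage cells that expand in tumor-bearing hosts and can restrain T cells. They are produced in the marrow, gather in the spleen and enter the tumor, where oxygen, nutrients and lipids differ from those of the spleen. Their reactive oxygen species are made by an NADPH oxidase, which draws on the NADPH that the pentose phosphate pathway supplies. Long intergenic noncoding RNAs (lincRNAs) are transcripts from between coding genes, and many of them are found in few cell types.

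With 1 array per group nothing could be tested, and a difference of 2-fold (1 on the log2 scale) is used as a size limit for description. A level is the log2 signal minus the array's 75th percentile, and a difference is the level on the tumor array minus that on the tumor-bearing spleen array. The error given with a difference of a reference gene is the SD between repeated spots of that probe, combined over both arrays, and holds no variation between mice, sorts or hybridisations. Over all compared probes 6071 (14.2%) read higher in the tumor by 2-fold or more and 6312 (14.7%) lower, and which side was larger depended on the scaling and the filter. The 75th percentile was 524 signal units on the tumor array, 509 on the tumor-bearing spleen array and 698 on the wild-type spleen array. Signals are given before this scaling, so that for genes of small difference, such as B2m and Actb, the wild-type array has another place in the order of signals than in the order of levels. The file headers record a multiplicative detrending for the tumor and wild-type arrays and none for the tumor-bearing spleen array. Between the compared arrays this step therefore moves with the tissue. It also sets the tumor-bearing spleen array apart from the wild-type spleen array. Of 34 marker genes of neutrophils and other cell types, 0 is paired with a probe in the files used here, so the labelled cell type was not checked against markers. In bulk samples of this kind, fewer cells of a type and less RNA per cell cannot be told apart.

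Among the 15 reference genes that the files name, each read by 1 probe in 20 spots, 2 enzymes of carbohydrate and glycerol metabolism were more than 2-fold lower in the tumor and 3 genes of other functions were more than 2-fold higher. Gk (glycerol kinase) and G6pd2 (a glucose-6-phosphate dehydrogenase) were lower, by 6.07-fold and 2.48-fold. Tuba1b (an alpha-tubulin), Gusb (the lysosomal beta-glucuronidase) and Rpl13a (a protein of the large ribosomal subunit) were higher, by 2.43-fold, 2.19-fold and 2.05-fold. The other 10 genes lay within 2-fold. These 5 genes past the limit among 15 stand beside 28.9% of all compared probes past it in either direction, so their number is not particular to the reference genes.

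The 250 bases before the start of these 5 genes are shown because they are the named genes past 2-fold and because they differ in the elements that lie near their starts. The sequences are RefSeq's, of build GRCm38.p6, read 5′ to 3′ on the gene's strand and ending at the base before the start. Capitals mark the motifs searched on both strands, of which the TATA box was spelled TATAAA, the GC box was spelled GGGCGG, and the box named CCAAT was spelled by its name. The core of the hypoxia response element was spelled ACGTG, and it lies inside the E-box, which was spelled CACGTG. The windows are chrX:85776820-85777069 on the minus strand for Gk, chr5:61808593-61808842 on the plus strand for G6pd2, chr15:98934391-98934640 on the minus strand for Tuba1b, chr5:130003050-130003299 on the minus strand for Gusb and chr7:45128746-45128995 on the minus strand for Rpl13a.
Gk: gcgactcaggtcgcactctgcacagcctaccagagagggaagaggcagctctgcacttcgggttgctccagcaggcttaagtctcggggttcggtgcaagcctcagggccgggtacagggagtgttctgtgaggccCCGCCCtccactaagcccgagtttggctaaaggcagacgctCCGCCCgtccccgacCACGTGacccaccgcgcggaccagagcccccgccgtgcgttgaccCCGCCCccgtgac
G6pd2: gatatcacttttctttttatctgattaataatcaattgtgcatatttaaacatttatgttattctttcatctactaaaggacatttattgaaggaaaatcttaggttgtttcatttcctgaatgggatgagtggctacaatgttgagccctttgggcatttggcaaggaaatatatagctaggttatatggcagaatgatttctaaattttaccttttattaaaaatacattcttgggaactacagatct
Tuba1b: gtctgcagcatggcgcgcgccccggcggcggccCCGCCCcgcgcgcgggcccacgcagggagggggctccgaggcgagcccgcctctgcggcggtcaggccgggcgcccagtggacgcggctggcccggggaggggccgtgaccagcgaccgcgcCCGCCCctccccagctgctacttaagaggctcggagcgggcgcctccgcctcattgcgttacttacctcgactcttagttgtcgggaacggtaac
Gusb: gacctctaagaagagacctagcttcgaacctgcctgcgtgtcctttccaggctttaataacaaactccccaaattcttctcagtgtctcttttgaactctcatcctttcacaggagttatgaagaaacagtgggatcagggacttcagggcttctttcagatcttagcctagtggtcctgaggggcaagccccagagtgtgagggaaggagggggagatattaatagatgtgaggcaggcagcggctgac
Rpl13a: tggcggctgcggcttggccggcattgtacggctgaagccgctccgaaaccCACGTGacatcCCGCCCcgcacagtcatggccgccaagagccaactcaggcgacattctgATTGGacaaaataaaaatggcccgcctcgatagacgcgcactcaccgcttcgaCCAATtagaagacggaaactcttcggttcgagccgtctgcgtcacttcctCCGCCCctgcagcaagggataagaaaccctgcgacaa

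Of these windows, that of Gk held 3 GC boxes and 1 E-box with the ACGTG core inside it, 58 bases before the start. The Rpl13a window, of a gene that read higher in the tumor, held an E-box with that core too, 200 bases before the start, with 2 CCAAT boxes and 2 GC boxes. The Tuba1b window held 2 GC boxes, and those of G6pd2 and Gusb held none of the motifs. A GC box was present in 32.7% of 32851 promoter windows of this length, CCAAT in 33.8%, ACGTG in 16.6%, TATAAA in 12.4% and CACGTG in 6.02%. The base composition ranged from 30.0% G and C before G6pd2 to 75.6% before Tuba1b, with 67.2% before Gk, 58.8% before Rpl13a and 49.6% before Gusb. The motif matches are descriptions of these letters, and genes on opposite sides of the comparison share them.

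Gk (NM_008194.3) phosphorylates glycerol and thereby feeds it into lipid synthesis and glycolysis. Its signal was 593 units on the tumor array (574 to 626 over 15 spots), 3498 on the tumor-bearing spleen array (3119 to 3777 over 19 spots) and 489 on the wild-type spleen array. The spots of tumor and tumor-bearing spleen did not overlap. On the level scale the tumor lay 0.69 above wild-type spleen, with the spots apart. The levels were 0.18, 2.78 and -0.51, and the difference between tumor and tumor-bearing spleen was -2.60 ± 0.08 (SD between spots, 1 array per group). Without the multiplicative detrending, and under each of the other alternatives, Gk stayed more than 2-fold lower in the tumor.

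G6pd2 (NM_019468.2) is a copy of the gene for glucose-6-phosphate dehydrogenase, the NADPH-forming entry step of the pentose phosphate pathway, and since G6pdx has a near-identical transcript, the probe may read both. Its signal was 14343 units in the tumor (12784 to 15534), 34606 in tumor-bearing spleen (32263 to 37645) and 4939 in wild-type spleen. The tumor lay between the spleens, and its spots overlapped with those of neither. The difference was -1.31 ± 0.09.

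Gapdh (NM_008084.2), a central enzyme of glycolysis, read 310841 units in the tumor (296917 to 344214), 471702 in tumor-bearing spleen (452192 to 495350) and 502010 in wild-type spleen. By this probe Gapdh was thus lower in the tumor, within 2-fold, at a difference of -0.64 ± 0.06. The difference was -0.35 after quantile normalization and -0.34 in the authors' value table. Ldhal6b (NM_175349.2), a lactate dehydrogenase A-like gene, read 137 units in the tumor, 136 in tumor-bearing spleen and 78.3 in wild-type spleen. Its spots overlapped between tumor (122 to 160) and tumor-bearing spleen (113 to 153), its difference was -0.03 ± 0.18, and its sign turned in 3 of 8 alternatives. Pgk1, which control probes at its ends alone read, is left out of the following count. Its mouse probes differed by -0.05 and -0.29. Of the 4 carbohydrate and glycerol genes with a reference probe, 2 were at least 2-fold lower and 0 higher, with a median difference of -0.98. Over all compared probes 14.7% were lower and 14.2% higher to that extent, with a median of -0.04.

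Control probes at the ends of 2 transcripts read the same side of metabolism and bear on the length of the RNA. The mouse probe at the 5′ end of the Gapdh transcript differed by -0.74 ± 0.06 and that at the 3′ end by -0.84 ± 0.04, both lower in the tumor as the reference probe was. The human Gapdh probes differed by -1.01 at the 5′ end and -0.75 at the 3′ end, and the rat ones by -1.09 and -1.35. All of these but the human 3′ probe were past 2-fold, so the size depended on the probe. For Pgk1, the glycolytic kinase after Gapdh, the mouse 5′ probe differed by -0.05 ± 0.11, with overlapping spots, and the 3′ probe by -0.29 ± 0.06. The 5′ difference minus the 3′ difference was 0.24 ± 0.12 for mouse Pgk1 and 0.11 ± 0.07 for mouse Gapdh, so the 5′ ends did not read lower relative to the 3′ ends in the tumor by these probes. For probes of human and rat sequence this value was 0.61 ± 0.12 and 0.53 ± 1.11 at Pgk1, and -0.26 ± 0.09 and 0.26 ± 0.14 at Gapdh. The human Gapdh pair thus turned the other way. The 5′ level minus the 3′ level of mouse Pgk1 was -4.11 in the tumor, -4.35 in tumor-bearing spleen and -2.98 in wild-type spleen. For human Pgk1 it was -3.94, -4.55 and -2.97, and for mouse Gapdh -0.42, -0.53 and -0.37. By these pairs wild-type spleen read the most 5′ signal relative to 3′ and tumor-bearing spleen the least. The noisy rat Pgk1 pair read 8.07, 7.54 and 7.99, and the human Gapdh pair -2.22, -1.96 and -1.90. The part of RNA length in the differences of the genes was not tested.

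Tuba1b (NM_011654.2), which forms microtubules with beta-tubulin, read 290703 units in the tumor (273604 to 316487), 116184 in tumor-bearing spleen (109748 to 119616) and 499758 in wild-type spleen. The tumor spots lay above those of tumor-bearing spleen, with a difference of 1.28 ± 0.07. Actb (NM_007393.3), the cytoplasmic actin of the cell cortex, read 199902, 255276 and 219713 units in the same order of arrays. Its difference was -0.39 ± 0.06, opposite in sign to that of the tubulin gene, and it was -0.14 after quantile normalization. The cytoskeletal genes thus did not differ in 1 direction.

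Rpl13a (NM_009438.4) read 15120 units in the tumor (13604 to 15987), 7158 in tumor-bearing spleen (6735 to 7808) and 94336 in wild-type spleen. The tumor spots lay above those of tumor-bearing spleen, with a difference of 1.04 ± 0.08. Hsp90ab1 (NM_008302.3), a cytosolic chaperone, read 37887, 23460 and 244069 units, a difference of 0.65 ± 0.10. Ppia (NM_008907.1), the prolyl isomerase cyclophilin A, read 374903, 243608 and 555211 units, a difference of 0.58 ± 0.06 that was 0.78 after quantile normalization. All 3 genes of protein synthesis and folding lay above 0, 1 of them past 2-fold, with a median of 0.65, beside 14.2% past 2-fold in that direction and 51.9% below 0 among all compared probes. Each read highest in wild-type spleen and lowest in tumor-bearing spleen.

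Gusb (NM_010368.1), which degrades glycosaminoglycans in the lysosome, read 24373 units in the tumor (23236 to 25200), 10807 in tumor-bearing spleen (10404 to 11221) and 77444 in wild-type spleen, a difference of 1.13 ± 0.04. Hprt (NM_013556.2), the purine salvage enzyme, read 102951, 51985 and 184861 units, a difference of 0.94 ± 0.09 or 1.92-fold. It lay just inside the limit, and passed it in 1 of 8 alternatives, at 1.01. The spots of both genes lay higher on the tumor array than on the tumor-bearing spleen array.

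The surface proteins and nuclear factors differed less. B2m (NM_009735.3), the light chain of MHC class I, read 230477 units in the tumor, 279413 in tumor-bearing spleen and 294022 in wild-type spleen, a difference of -0.32 ± 0.07. Tfrc (NM_011638.3), the transferrin receptor, read 35365, 44545 and 67194 units, a difference of -0.37 ± 0.07. Tbp (NM_013684.3), the TATA-binding protein of transcription initiation, read 7403, 8067 and 13070 units, a difference of -0.17 ± 0.06, and Nono (NM_023144.2), an RNA-binding protein of nuclear paraspeckles, read 27247, 21671 and 83977 units, a difference of 0.29 ± 0.06. On the level scale the spots of each of these 4 genes were apart between the 2 arrays although the differences were small. Those of Tbp were apart by little, and its signals before scaling overlapped, at 6812 to 7744 units in the tumor and 7531 to 8530 in tumor-bearing spleen. Over the 15 genes the spots were apart on the level scale for 14, and spot error is therefore no measure of what differs between tissues.

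**Figure D1:**
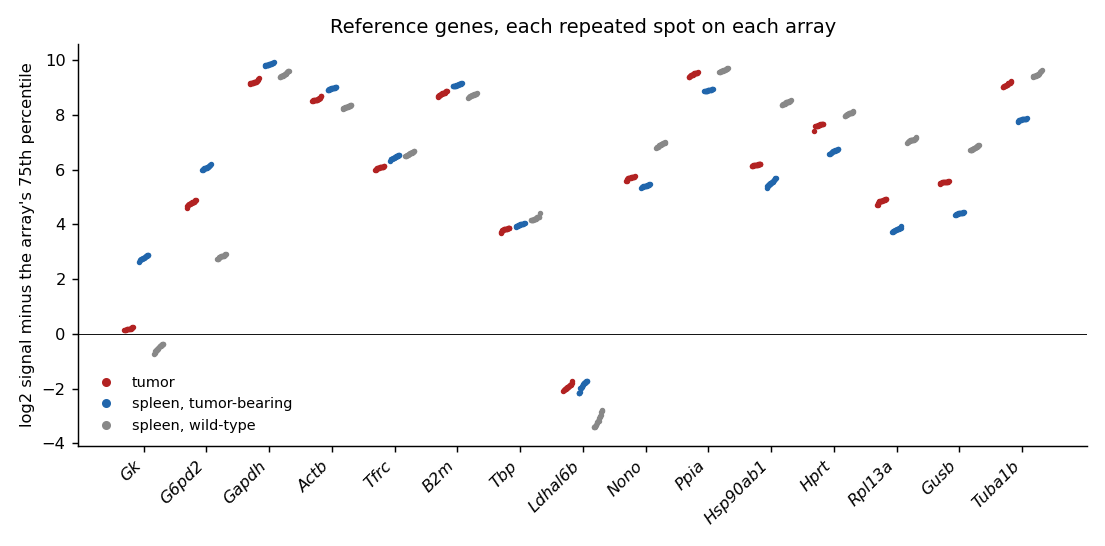
Level of each reference gene (log2 signal minus the array's 75th percentile, vertical axis) for every usable repeated spot on the tumor (red), tumor-bearing spleen (blue) and wild-type spleen (grey) arrays, 1 array each. The Gk spots of the tumor lie near 0.18 and those of tumor-bearing spleen near 2.78, while the Ldhal6b spots of these arrays overlap.

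**Figure D2:**
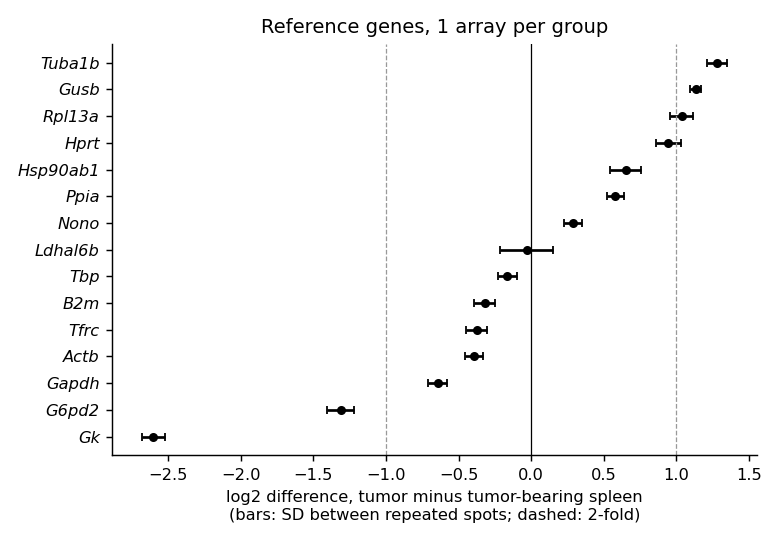
Log2 difference between tumor and tumor-bearing spleen for the 15 reference genes (horizontal axis), with bars for the SD between repeated spots and dashed lines at 2-fold. Gk at -2.60 and G6pd2 at -1.31 lie beyond the lower line, and Rpl13a, Gusb and Tuba1b at 1.04 to 1.28 beyond the upper one.

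The plot of levels by spot shows where the third array stood: wild-type spleen was highest for 9 genes, lowest for 5 and between the others for 1, which was Gapdh on the level scale. The order wild-type spleen, tumor, tumor-bearing spleen held for 7 genes, and the order tumor-bearing spleen, tumor, wild-type spleen for 5, Gk and G6pd2 among them. Of the 9 housekeeping genes, Rpl13a and Gusb were the 2 past the limit in the upward direction and 0 were past it downward, beside 14.2% and 14.7% of all compared probes, with differences from -0.64 to 1.13 and a median of -0.17. No single scaling would bring them to a common value.

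The lincRNA-named probes differed mostly in 1 direction, lower in the tumor than in the spleen of the same kind of mice. Of 1836 such probes, each with 1 spot per array, 899 were well above background in the tumor and 902 in tumor-bearing spleen, 786 of them on both arrays. Among the 786, 31 (3.94%) read higher in the tumor by 2-fold or more and 213 (27.1%) read lower to that extent, beside 14.2% and 14.7% of all compared probes. A difference below 0 was found for 607 (77.2%), beside 51.9% of all compared probes. The differences ran from -3.24 to 2.76 with a median of -0.50 and quartiles of -1.07 and -0.10. With normexp correction of the background the counts past 2-fold were 3 upward and 114 downward, and the median was -0.25. The number detected was thus alike in both tissues, at 49.0% and 49.1% of these probes. Over all probes 76.0% were detected in the tumor and 73.6% in tumor-bearing spleen. The signal of lincRNA-named probes detected on both arrays was mostly lower in the tumor.

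The lean was present under each prefix of the probe names. The prefix humanlincRNA had 446 probes on both arrays, of which 14 were higher and 124 (27.8%) lower around a median of -0.50. The prefix mouselincRNA had 290, of which 14 were higher and 73 (25.2%) lower around a median of -0.47, and the prefix MM9LINCRNAEXON had 50, of which 3 were higher and 16 (32.0%) lower around a median of -0.67. Among 41641 probes with the maker's identifier ASMM10P, 14.4% were higher and 14.5% lower around a median of -0.03. The 401 probes with the related identifier ASMM10UP stood between, with 8.48% higher, 19.0% lower and a median of -0.30. The sources used here do not state what transcripts these identifiers stand for.

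**Figure D3:**
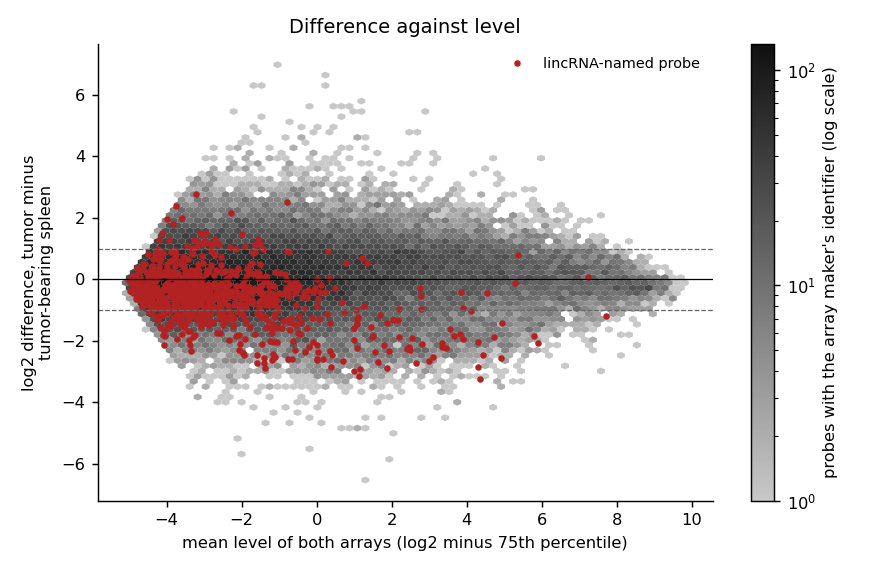
Log2 difference between tumor and tumor-bearing spleen (vertical axis) against the mean level of both arrays (horizontal axis), with probes of the identifier ASMM10P as grey hexagons on a log count scale, lincRNA-named probes as red points and dashed lines at 2-fold. To the right of level 0 the red points lie mostly below the lower dashed line and reach -3.24.

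The plot of difference against level shows that the lean was larger among bright lincRNA-named probes. At a mean level of 4 or more, 11 of 15 (73.3%) were at least 2-fold lower in the tumor, with a median of -1.85. From 2 to 4, 18 of 24 (75.0%) were lower, with a median of -1.90, and from 0 to 2, 31 of 47 (66.0%), with a median of -1.43. Above level 0, then, 0 lincRNA-named probes were at least 2-fold higher. From -2 to 0 the share lower was 33.7% of 169, from -4 to -2 it was 21.7% of 374, and below -4 it was 9.55% of 157, where 3 were higher. Among ASMM10P probes the share lower grew with level too, over a smaller range and together with the share higher. It was 8.22% below -4, where 5.19% were higher, then 12.2%, 14.9%, 18.9% and 21.0% in the next classes, where 14.7%, 15.9%, 17.9% and 17.3% were higher. At level 4 or more, 12.9% of 4445 were lower and 10.5% higher.

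**Figure D4:**
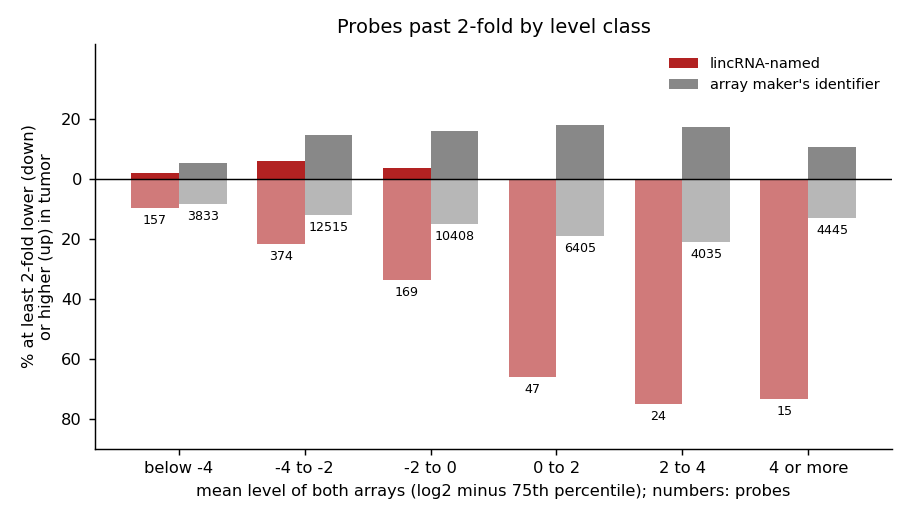
Percent of probes at least 2-fold higher (bars upward) or lower (bars downward) in the tumor by class of mean level, for lincRNA-named probes (red) and probes of the identifier ASMM10P (grey), with the number of probes at each bar. The downward red bars grow from 9.55% below level -4 to 75.0% between 2 and 4, while the grey bars stay between 5.19% and 21.0% in both directions.

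At a signal of at least 500 units on both arrays, a minimum chosen after the data were seen, 68 lincRNA-named probes of 64 loci remained. Of these, 46 (67.6%) were at least 2-fold lower in the tumor and 0 higher, 61 lay below 0 and 7 above, and the median was -1.56 with quartiles of -2.15 and -0.84. The 13357 ASMM10P probes past the same minimum had 13.5% higher, 15.7% lower and a median of 0.05. The median levels of the 68 were 1.53 in the tumor, 3.19 in tumor-bearing spleen and 2.31 in wild-type spleen. The tumor thus had the lowest of the 3 at this minimum, which the wild-type array did not have to meet. For the mouselincRNA probes among the 68, tumor and wild-type spleen were alike, at 1.51 and 1.50. The count lower was 45 to 46 and the count higher 0 under each of 8 alternatives at this minimum. These 8 are not independent checks. The filter on dim probes could hardly act at this minimum. The authors' value table nearly repeated quantile normalization, with medians of -1.582 and -1.583. By prefix, 29 of 37 humanlincRNA, 13 of 25 mouselincRNA and 4 of 6 MM9LINCRNAEXON probes were at least 2-fold lower. With lower minimums of 50, 100 and 200 units, 142 of 402, 101 of 246 and 72 of 134 were lower and 9, 4 and 0 higher.

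The lincRNA-named probe with the lowest difference was humanlincRNA2199+_P1. It read 3468 signal units in the tumor, 31828 in tumor-bearing spleen and 10056 in wild-type spleen, a difference of -3.24 or 9.45-fold. Next under that prefix came humanlincRNA1828+_P1, with 385, 3318 and 1011 units and a difference of -3.15, and humanlincRNA2161-_P1, with 367, 2835 and 565 units and a difference of -2.99. Each of these 3 read lowest in the tumor and highest in tumor-bearing spleen, with wild-type spleen between.

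Under the prefix mouselincRNA the lowest difference was that of mouselincRNA0712-_P1, which read 424 units in the tumor, 3123 in tumor-bearing spleen and 1227 in wild-type spleen, a difference of -2.92. The much brighter mouselincRNA0158-_P1 read 3830, 26759 and 9649 units, a difference of -2.85. The probe mouselincRNA0299-_P1 followed at -2.61, with 213, 1263 and 456 units. Again the tumor was lowest and tumor-bearing spleen highest. Of the exon probes, MM9LINCRNAEXON11939-_P1 read 238, 1399 and 525 units, a difference of -2.60, MM9LINCRNAEXON10664-_P1 read 61.5, 259 and 122 units, a difference of -2.11, and MM9LINCRNAEXON10477+_P1 read 29.9, 101 and 40.3 units, a difference of -1.80. The last 2 are dim and differed by -1.37 and -0.40 under normexp background correction.

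Most of the lincRNA-named probes furthest up in the tumor were dim. MM9LINCRNAEXON11564+_P1 read 146 units in the tumor, 20.9 in tumor-bearing spleen and 46.2 in wild-type spleen, a difference of 2.76 that was 1.26 under normexp correction. The probe humanlincRNA2208-_P1 read 728, 122 and 43.3 units, a difference of 2.53 and 2.03 under that correction, and its tumor signal lay above the array's 75th percentile. The next, humanlincRNA0518+_P1 and humanlincRNA1165-_P1, at 2.40 and 2.00, read 89.2 and 87.2 units in the tumor against 16.4 and 21.2 in tumor-bearing spleen, and both fell inside 2-fold under that correction, at 0.95 and 0.87. Among mouselincRNA probes, mouselincRNA0336-_P1 read 227 units against 49.7, a difference of 2.15 that was 1.39 under normexp correction, and mouselincRNA1188+_P1 and mouselincRNA1486-_P1 differed by 1.95 and 1.79, but by 0.57 and 0.35 under it. The other exon probes furthest up were MM9LINCRNAEXON11382-_P1, with 53.3 units against 21.4 and a difference of 1.28, and MM9LINCRNAEXON11506+_P1, with 276 against 120 and a difference of 1.17, and both came inside 2-fold under that correction, at 0.43 and 0.79. In wild-type spleen humanlincRNA0518+_P1, mouselincRNA1188+_P1, MM9LINCRNAEXON11382-_P1 and MM9LINCRNAEXON11506+_P1 read 143, 83.7, 60.3 and 326 units. On the level scale these lay near the tumor or above it. The probes humanlincRNA1165-_P1, mouselincRNA0336-_P1 and mouselincRNA1486-_P1 read 40.2, 16.9 and 27.3 units there, below the tumor. At levels below 0 the difference between single spots has a pooled technical SD of 0.50, against 0.20 from 0 to 4 and 0.09 at 4 or more. These values come from repeated probes, control probes included, and below 0 from 16 pairs of probe and array. The spot SDs there were uneven. They were 0.91 in the tumor and 0.64 in tumor-bearing spleen for the rat 3′ Pgk1 control probe, and 0.10 and 0.15 for Ldhal6b.

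The brightest lincRNA-named probes did not all share the lean. Ranked by mean level over both arrays, mouselincRNA0161-_P1 read 80833 units in the tumor, 74018 in tumor-bearing spleen and 61802 in wild-type spleen, a difference of 0.09, and mouselincRNA0772-_P1 read 19598, 20703 and 20132, a difference of -0.12. In contrast, mouselincRNA1188-_P1 read 15203, 61579 and 31996, a difference of -2.06. Of the brightest humanlincRNA probes, humanlincRNA2330+_P1 read 15160, 53139 and 29145 (-1.85) and humanlincRNA2159-_P1 read 9908, 25458 and 21377 (-1.40). The probe humanlincRNA2438+_P1 went the other way, at 28081, 15823 and 36763 units and a difference of 0.79, the highest of the 68. Of the exon probes, MM9LINCRNAEXON10664+_P1 read 71619, 160579 and 94778 units (-1.21), MM9LINCRNAEXON10490+_P1 read 6320, 12409 and 11761 (-1.01) and MM9LINCRNAEXON11569-_P1 read 1126, 2442 and 3817 (-1.16). The second of these exon probes came just inside 2-fold in 3 of 8 alternatives.

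Some lincRNA-named probes were well above background in 1 of the tissues. There were 113 such probes in the tumor, of which 20 were past 2-fold by a lower limit set against the dimmest detected signal, and 116 in tumor-bearing spleen, of which 42 were past it by the same limit. Over all probes 3486 were well above background in the tumor alone, 1018 of them past 2-fold by that limit, and 2019 in tumor-bearing spleen alone, 700 of them past it. The probe humanlincRNA0246+_P1 read 215 units in the tumor and 10.7, not well above background, in tumor-bearing spleen and was thus at least 13.0-fold higher in the former. Likewise humanlincRNA1635+_P1 read 94.2 and 3.21 units, at least 5.68-fold higher. In the other direction humanlincRNA1546-_P1 read 76.1 units in tumor-bearing spleen and 8.89 in the tumor, at least 5.98-fold lower in the tumor, and humanlincRNA0384+_P1 read 70.5 and 10.6 units, at least 5.55-fold lower.

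Many lincRNA loci have a probe named with a plus sign and another named with a minus sign, a sign the sources used here do not explain. Of 876 loci with both, 163 had both probes well above background in both tissues, 415 had 1 and 298 had neither. Among the 163, both probes lay below 0 for 98 loci, both above 0 for 15, and the signs were opposite for 50. Both were at least 2-fold lower for 17 loci and both at least 2-fold higher for 1. In 55 loci just 1 of the probes was at least 2-fold lower, and in 12 just 1 was at least 2-fold higher. These counts share 2 loci, in which 1 probe was higher and the other lower. In 80 loci neither was past the limit. The probes of a locus often differed in size: the median gap between them was 0.80, the gap was at least 2-fold for 63 loci, and Pearson r between them was 0.149 over the 163 loci, which share both arrays and their scaling. The lean was alike by sign, with 100 of 384 plus probes at least 2-fold lower (median -0.46) and 113 of 402 minus probes (median -0.53).

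**Figure D5:**
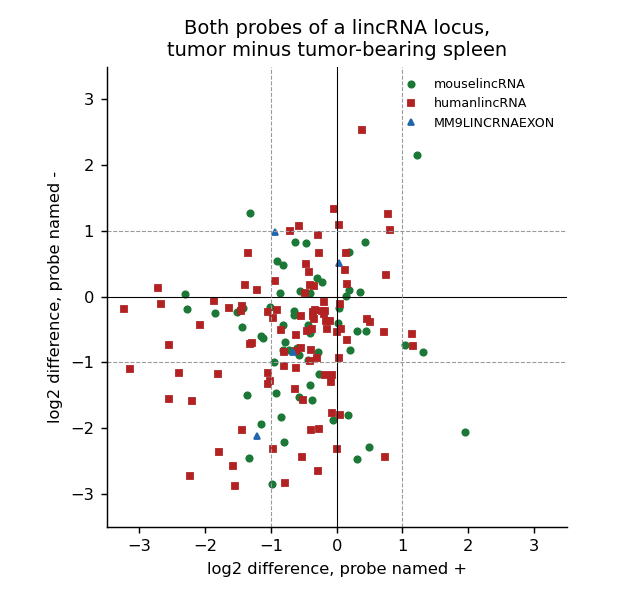
Log2 difference between tumor and tumor-bearing spleen of the minus-named probe (vertical axis) against that of the plus-named probe (horizontal axis) for the 163 lincRNA loci with both measured, by prefix, with dashed lines at 2-fold. Most points lie left of and below 0, in 98 loci on both axes, and the isolated point at 1.95 and -2.06 is mouselincRNA1188.

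The plot of both probes of a locus shows mouselincRNA1188 apart, with the largest gap, 4.01. Its plus-named probe read 65.2 units in the tumor against 16.3 in tumor-bearing spleen, and its minus-named probe 15203 against 61579. On the spleen array 16.1 units was the dimmest detected signal, and under normexp correction the differences were 0.57 and -1.99. Both probes were lower at humanlincRNA0955, with -2.23 and -2.73, at humanlincRNA2397, with -1.79 and -2.37, and at humanlincRNA0367, with -2.20 and -1.58. All 3 belong to the prefix humanlincRNA, which held 13 of the 17 loci with both probes at least 2-fold lower, among 98 measured, beside 3 of 61 for mouselincRNA.

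Some control probes moved the same way as the lincRNA-named ones. The probe ERCC-00062_278 read 322 units in the tumor and 1298 in tumor-bearing spleen, a difference of -2.05, and the GE_BrightCorner control read 19476 and 45906 units, a difference of -1.28. The other ERCC probes measured on both arrays lay within 2-fold, ERCC-00012_90 at -0.36, ERCC-00097_63 at -0.10 and ERCC-00104_60 at 0.17. A dim one, ERCC-00053_71, was well above background in 2 of 35 spots in the tumor and 29 of 35 in tumor-bearing spleen, with 8.36 and 24.4 units. Their part in the result on lincRNA-named probes was not tested. Without the multiplicative detrending the 68 bright lincRNA-named probes had 46 at least 2-fold lower and 0 higher, and after quantile normalization 45 and 0. Neither setting tests the part of these control probes.

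Probes with the maker's identifier alone, which the files do not pair with a gene, held the largest differences. ASMM10P012796 read 140 units in the tumor, 12523 in tumor-bearing spleen and 52.3 in wild-type spleen, a difference of -6.53, and ASMM10P047627 read 258, 15026 and 78.4, a difference of -5.91. In the other direction ASMM10P028238 read 3008, 23.1 and 56.5 units, a difference of 6.98, and ASMM10P045965 read 6058, 57.6 and 129, a difference of 6.67. For the former pair the tumor and wild-type spleen were both far below tumor-bearing spleen, and for the latter pair both spleens were far below the tumor. At least 8-fold, 216 compared probes read higher in the tumor against 199 lower, and at least 16-fold, 57 were higher and 31 lower. The levels of both arrays had a Pearson r of 0.946 across the 42843 probes, which share the arrays and are no independent replicates, and the differences had an SD of 1.04.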

How the data were processed

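Per the file headers, the deposited intensity values are background-subtracted processed signals of a 1-colour (Cy3) scan made with Agilent Feature Extraction 11.0.1.1, also named in the submitters' processing notes. The authors' deposited value table holds log2 values of the same arrays (r of 0.999 and 0.999 with the signals, medians of 6.40 and 6.40), and its scaling, centring and software are not given in the sources used here.

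Spots with outlier flags were dropped, and control spots were left out of the compared probes but not out of the pooled spot error. Spots of the same probe were averaged on the log2 scale, and each array's 75th percentile was subtracted. A probe was compared when well above background on both arrays. Of 300 spots of 15 negative probes, 22, 15 and 18 carried that flag on the tumor, tumor-bearing spleen and wild-type arrays, and 0 probes were saturated. For a probe detected on 1 array, the bound is the bright value over the higher of the lowest detected signal and the dim probe's own. RefSeq accessions matched all 15 reference genes in a table of assembly GRCm38.p6, and 13 had a promoter entry. All reference genes are named, and per lincRNA prefix the 3 probes furthest up, the 3 furthest down and the 3 brightest. The members and lists were chosen with earlier results of these data known, and the signal minimums after seeing the data. The scaling, the 2-fold split and the quantile normalization were tested on simulated arrays, whose noise was below the pooled spot error of dim probes. The other steps were not tested in this way. AK036396 and Fcnb were not analysed here. Tools were Python 3.11.15, numpy 2.4.6, pandas 2.3.3, R 4.3.3, limma 3.58.1 and matplotlib 3.10.9.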

Additional observations from a re-analysis of the deposited data

Results flagged for a closer look

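These control probes read differently in tumor and tumor-bearing spleen although no comparison uses them. ERCC-00062_278 differed by -2.05, with 322 signal units in the tumor, 1298 in tumor-bearing spleen and 679 in wild-type spleen. GE_BrightCorner differed by -1.28, with 19476, 45906 and 23890 units. ETG05_66023 differed by -1.07 at a low signal of 44.6, 90.9 and 58.0 units. For ETG09_48764, 11 of 11 spots were well above background in the tumor, 0 of 10 in tumor-bearing spleen and 0 of 12 in wild-type spleen, and it read at least 2.58-fold higher in the tumor than in tumor-bearing spleen, a bound of 1.37 on the log2 scale.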

How the results depend on the processing

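No replicate exists, so no difference has a replicate check, and the depth of an array is set by its signal over background, which limits dim probes most. Of the 15 genes, 14 kept their sign in all 8 alternatives, the exception being Ldhal6b, and all 5 past 2-fold stayed past it. No result past 2-fold turned its sign. With no filter on dim probes 9922 probes read higher in the tumor against 9163 lower, and lincRNA-named probes numbered 164 higher and 392 lower with a median of -0.22. Under normexp correction these values were 3752, 3994, 3, 114 and -0.25, and at 500 signal units or more 1816, 2162, 0, 46 and -1.56. At 1.5-fold 11115 probes were higher and 11419 lower, 70 and 353 of them lincRNA-named, with 2 bright lincRNA-named probes higher. At 4-fold 1166 were higher and 1477 lower, 4 and 61 of them lincRNA-named, with 22 bright ones lower. Without the multiplicative detrending the balance turned, with 6557 higher against 5964 lower, and with the median as the scale both sides numbered 6196. Other causes of these changes were not tested. Of the 27 lincRNA-named probes named by the rule 24 were past 2-fold, and 16 were so in all 8 alternatives of scaling, source, filter, background, detrending and outlier spots, the last 2 of which were added for these probes after seeing the data. No paired analysis was possible because each group has 1 array.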
